A study of Mus musculus with 12 samples.

Results

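The Myc and ribosome biogenesis genes described here are 40 mouse genes: Myc itself with 3 partners and antagonists (Max, Mxd1, Mxi1), 34 genes for the building of ribosomes in the nucleolus, and the polyamine enzymes Odc1 and Srm. They were chosen by name, with earlier results of these data known. Every probe set whose platform annotation gave one of these symbols, and no other symbol, was taken, and each gene was represented by the probe set with the highest mean signal. All 40 had such a probe set and all 40 passed the filter on dim probe sets, out of 12309 genes tested.

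Total RNA of whole lung was measured on 12 Affymetrix mouse arrays, 3 in each of 4 groups. All animals were male C57BL/6 mice of 8 to 12 weeks. Wild-type mice and nmMLCK-/- mice, in which the non-muscle form of the kinase MLCK, a product of the gene Mylk, is deleted, either breathed spontaneously (SB) or were placed on a ventilator for 4 h at a tidal volume that injures the lung (VILI, ventilator-induced lung injury). The tidal volume is given as 40 ml/kg with the samples and as 30 ml/kg with the series, at a rate of 65 breaths per min with 0 cm H2O of pressure at the end of expiration, and no group ventilated at a low tidal volume was part of the design. The labels name no tissue to which the deletion was limited. The series text gives 3 animals in each group and does not say that each array is 1 animal. The p-values thus measure the spread between samples of the same group, estimated over all 12 arrays. Values are log2 signals, differences are VILI minus SB on the log2 scale with their standard error, and a gene was called at a Benjamini-Hochberg adjusted p under 0.05 in limma, a linear model with a shared estimate of the spread.

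Myc is a transcription factor that binds DNA as a dimer with Max, at the palindromic E-box CACGTG and variants of it. Mxd1 and Mxi1 bind Max in its place and repress many of the same promoters. Ribosome biogenesis is among the programs best known to rise with Myc: RNA polymerase I transcribes the ribosomal RNA precursor, small nucleolar ribonucleoproteins modify it, a large processome cuts it and folds the small subunit, and a separate set of factors matures the large subunit. Odc1, which makes the polyamine putrescine from ornithine, is a textbook target of Myc.

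The E-box is shown where it occurs close to an annotated start of a member, because it is the sequence through which the members' relation to Myc is usually read. RefSeq promoter windows of 300 bases, 250 before and 50 after an annotated start on GRCm38.p6, were at hand for 33 of the 40 members. A gene with several annotated starts could have several windows. The letters CACGTG, which read the same on both strands, stood in a window of 6 of these 33 members (18.2%). These were Utp20, Wdr43, Nop2 and Mybbp1a, which rose after VILI, and Max and Pes1, which did not pass the test. The motif is in capitals in the stretches below, written 5′ to 3′ along the gene.
Nop2: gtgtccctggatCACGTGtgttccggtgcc
Max: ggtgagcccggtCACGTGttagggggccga
Pes1: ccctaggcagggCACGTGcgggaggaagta
Wdr43: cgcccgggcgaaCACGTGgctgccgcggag
Utp20: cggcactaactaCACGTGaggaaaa
Mybbp1a: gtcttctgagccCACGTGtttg

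The Nop2 stretch lies at chr6:125131811-125131840 on the plus strand, with the motif 60 bases before the start. That of Max lies at chr12:76962234-76962263 on the minus strand, with the motif 3 bases before an annotated start inside the gene. The others begin their motif after the start: Pes1 by 2 bases (chr11:3963965-3963994, plus strand), Wdr43 by 17 (chr17:71616220-71616249, plus strand), Utp20 by 37 (chr10:88826765-88826789, minus strand) and Mybbp1a by 40 (chr11:72441355-72441376, plus strand). Each distance is from the annotated start of the window that holds the motif. For Max and Wdr43 that start lies inside the gene, whose span begins at 76962323 for Max and at 71616178 for Wdr43. For comparison, 4 of the 19 members with a window that rose after VILI held the motif (21.1%), 2 of the other 14 did (14.3%), and 1151 of 9928 tested genes with a window did (11.6%). Over the whole promoter table of 27025 genes the share was 8.09%. A gene counted if any of its windows held the motif, so more annotated starts gave more chances of a match. Such a match is a description of these letters and not a measured binding site.

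The arrays carried the signals of lung tissue, with the surfactant gene Sftpc at 15.70 to 15.81 and the club-cell gene Scgb1a1 at 16.15 to 16.22 in all 12. Mylk, the targeted gene, was at 12.77 to 13.05 in wild type and 12.68 to 12.83 in nmMLCK-/-, and the genotypes did not differ by the test (adjusted p = 0.9998 under SB and 0.635 under VILI). Mylk also encodes the smooth muscle isoform, which the deletion leaves, and the annotation does not say which isoform the probe set measures, so it gives no check of the genotype labels. Wild-type SB replicate 3 and nmMLCK-/- SB replicate 2 stood apart from the other 4 SB arrays: a list of 12 glucocorticoid-responsive genes averaged 11.75 and 11.63 there and 13.05 to 13.40 in the others, and 11 NRF2-responsive genes averaged 10.23 and 10.04 against 11.43 to 11.76. For many of the results that rest on these arrays, values without them are also given. The average of 12 neutrophil markers was 5.93 to 8.73 under SB and 8.35 to 9.68 after VILI. Of the 11 past the filter 9 rose and 0 fell, where 14.1% of all genes rose and 22.6% fell. In bulk tissue a change in the number of cells of a type and a change in RNA per cell cannot be told apart.

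Myc rose after VILI in both genotypes and ranked 54 by size of the rise among the 12309 genes. The gene lies at chr15:61985341-61990361 (GRCm38.p6). Its signals were 6.59, 6.47 and 5.81 in wild-type SB, 8.82, 8.49 and 8.42 in wild-type VILI, 7.19, 5.67 and 6.93 in nmMLCK-/- SB and 8.79, 8.63 and 7.93 in nmMLCK-/- VILI. Every VILI array was above every SB array, and the SB arrays were the more scattered, with the lowest values in the arrays that stood apart. Group means were 6.29 ± 0.42 (SD, n = 3) in wild-type SB and 8.58 ± 0.21 in wild-type VILI, 6.60 ± 0.81 in nmMLCK-/- SB and 8.45 ± 0.46 in nmMLCK-/- VILI. The log2 difference was 2.29 ± 0.38 in wild type (4.89-fold, adjusted p = 0.00454) and 1.85 ± 0.38 in nmMLCK-/- (3.61-fold, adjusted p = 0.00966), and 2.07 ± 0.27 as the mean of both genotypes (4.20-fold, adjusted p = 0.000406). Without the SB arrays that stood apart the differences were smaller, 2.05, 1.39 and 1.72 in the same order, and each passed (adjusted p = 0.00116, 0.00673 and 0.000228). No fit that left out 1 array ended any of these calls.

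The partners of Myc moved in different ways. Max, the obligate partner of Myc, was at 9.71, 9.30 and 7.26 in wild-type SB, 9.17, 9.33 and 9.47 in wild-type VILI, 9.36, 7.06 and 8.27 in nmMLCK-/- SB and 9.68, 9.44 and 8.90 in nmMLCK-/- VILI. The low values were those of the same pair of SB arrays, 2.00 below the other 4 SB arrays on average, while 3 of the other SB arrays (9.71, 9.30 and 9.36) lay within the VILI range or above it and the fourth (8.27) lay below it. Its difference was 0.84 ± 0.46 (adjusted p = 0.173) and did not pass. Without the SB arrays that stood apart it was 0.17 (adjusted p = 0.584), with the value in wild type turned from 0.57 to -0.18 and that in nmMLCK-/- moved from 1.11 to 0.53.

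Mxi1, an antagonist of Myc that competes for Max, was the 1 member of the 40 that fell. Its signals were 10.36, 10.16 and 10.40 in wild-type SB, 9.70, 9.73 and 9.69 in wild-type VILI, 10.28, 10.56 and 10.48 in nmMLCK-/- SB and 9.41, 9.65 and 9.51 in nmMLCK-/- VILI. All 6 VILI arrays lay below all 6 SB arrays. The difference was -0.76 ± 0.07 (1.69-fold lower, adjusted p = 8.59e-05), with -0.60 in wild type and -0.92 in nmMLCK-/-, and a dimmer probe set of the gene gave -1.93.

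Mxd1, another antagonist from the same family, moved the opposite way to Mxi1. It was at 9.47, 9.47 and 9.73 in wild-type SB, 9.57, 10.01 and 10.60 in wild-type VILI, 9.44, 9.11 and 9.38 in nmMLCK-/- SB and 10.22, 9.77 and 10.66 in nmMLCK-/- VILI. The highest VILI arrays were replicate 3 of either genotype, and wild-type VILI replicate 1 lay within the SB range. Mxd1 rose by the mean of both genotypes (0.71 ± 0.19, adjusted p = 0.0146). This call was lost (0.59, adjusted p = 0.057) when nmMLCK-/- VILI replicate 3 was left out together with the SB arrays that stood apart. In nmMLCK-/- alone the difference was 0.91 ± 0.26 (adjusted p = 0.0352), a call that 6 of the 12 fits with 1 array less did not give, nor did the fit without the SB arrays that stood apart (0.81, adjusted p = 0.0942). In wild type it was 0.50 ± 0.26 (adjusted p = 0.227).

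**Figure D1:**
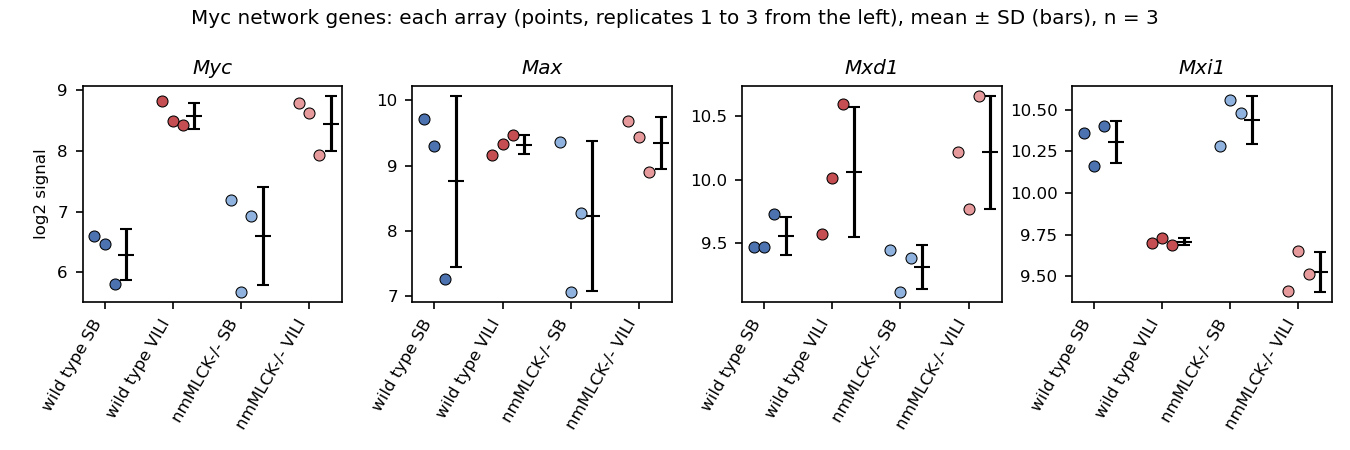
Log2 signal of Myc, Max, Mxd1 and Mxi1 in each of the 12 arrays by group (points, replicates 1 to 3 from the left), with the group's mean ± SD (bars, n = 3). Myc in all 6 VILI arrays (7.93 to 8.82) lies above the SB arrays (5.67 to 7.19), Mxi1 lies below them in all 6, and Max is low in 2 SB arrays (7.26 and 7.06).

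Across the 40 genes, the rise after VILI was frequent and moderate. By the mean of both genotypes 23 of the 40 rose, against 14.1% of all genes tested, and 1 fell, against 22.6%. Because the 40 were chosen with earlier results of these data known, these shares describe them and are not an independent test. The median difference was 0.33 over the 40 and -0.05 over all genes. In 17 members all 6 VILI arrays lay above all 6 SB arrays, against 7.45% of all genes, and 1 member, Mxi1, had all 6 below, against 10.4%. The sign was positive in 34 of the 40 and in 43.5% of all genes. The arrays' scaling did not turn this picture: with array medians set equal 24 rose and 1 fell, and with quantile normalization 23 rose and 1 fell.

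In wild type 16 members rose, against 6.34% of all genes, and 1 fell, against 9.03%, with a median difference of 0.44. Of the 1892 genes called there 41.2% were higher, and 52.5% were when array medians were set equal. In nmMLCK-/- 19 rose, against 8.12% of all genes, and 1 fell, against 12.6%, with a median of 0.36. The genotypes share no samples, and 15 genes rose in both (15 of the 16 and 15 of the 19). Of all genes 498 (4.05%) did, which is 63.8% of those that rose in wild type and 49.8% of those that rose in nmMLCK-/-. The 15 were Myc, Rrp12, Utp20, Wdr43, Heatr1, Nolc1, Nop58, Gar1, Nhp2, Rrs1, Ddx21, Gnl3, Ppan, Mybbp1a and Odc1.

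The calls within one genotype, with 3 arrays against 3, were more fragile than those of the mean. Of the 17 wild-type calls 9 were kept whichever of the 12 arrays was left out, and the count of members called ran from 11 (without wild-type VILI replicate 2) to 18. The 8 others were Rrp12, Utp20, Wdr43, Nop58, Nhp2, Wdr74, Ddx21 and Mybbp1a. Of the 20 calls in nmMLCK-/- 13 were kept in each fit, and Mxd1, Rrp9, Nop58, Nhp2, Ddx21, Polr1a and Srm were not. Of the 24 calls by the mean of both genotypes 21 were kept.

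**Figure D2:**
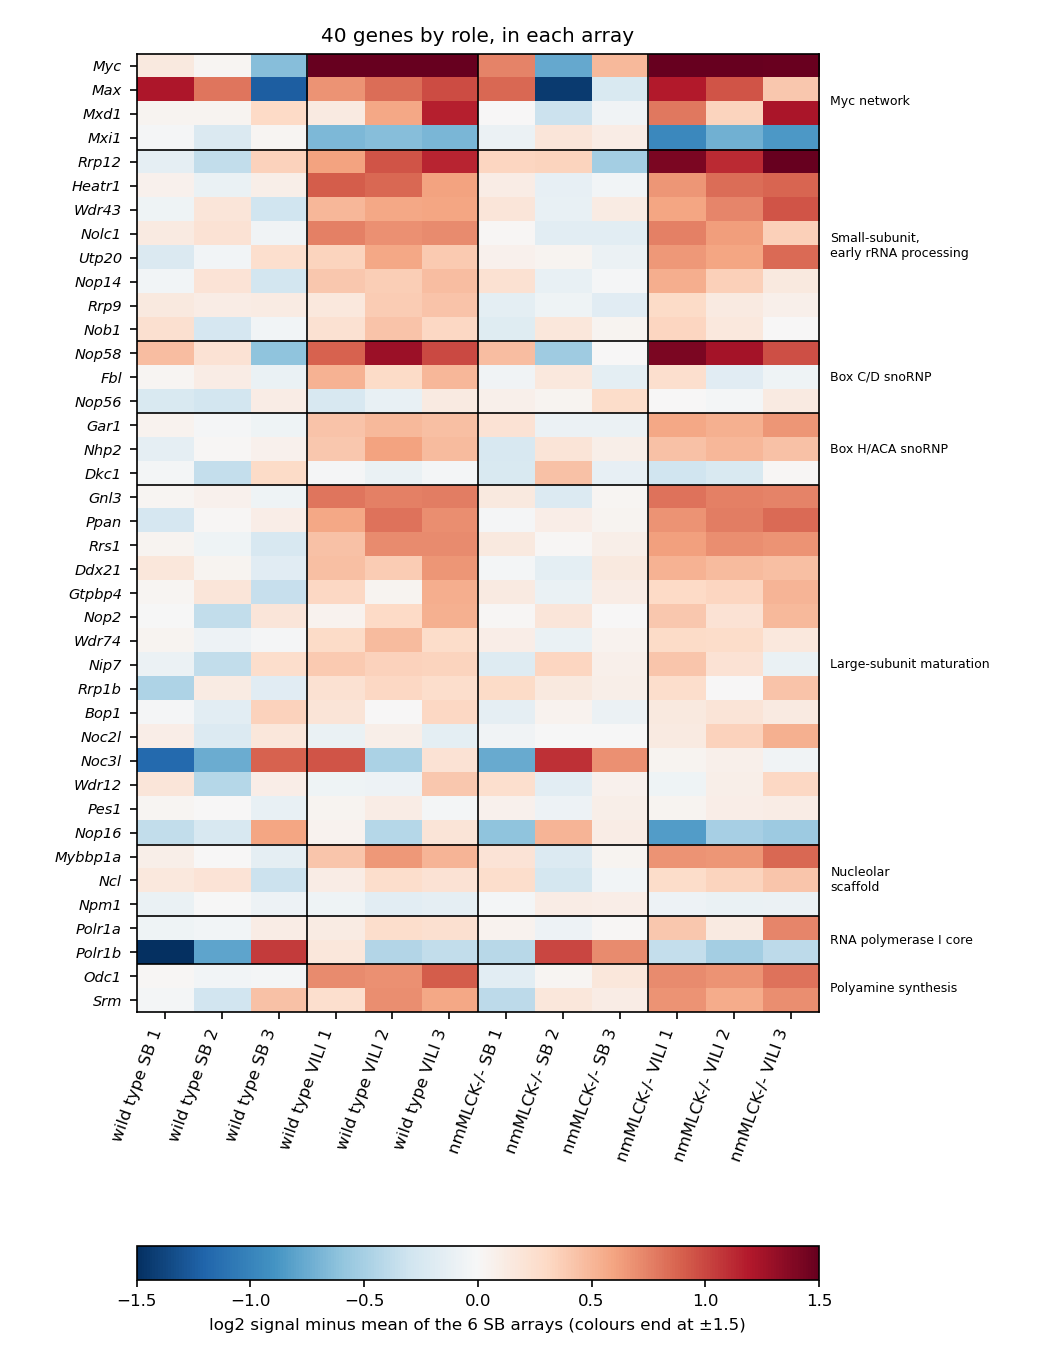
Each of the 40 genes (rows, by role) in each of the 12 arrays (columns, by group), coloured by its log2 signal minus the gene's mean over the 6 SB arrays, with colours ending at ±1.5. Rrp12, Heatr1, Wdr43, Nolc1, Utp20, Gnl3, Ppan, Rrs1 and Odc1 are higher in every VILI column than in every SB column, and wild-type SB 3 and nmMLCK-/- SB 2 differ from their neighbours in Max, Nop58, Nop16, Noc3l and Polr1b.

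The genes of small-subunit assembly and early rRNA processing rose nearly throughout: 7 of the 8 rose and 0 fell, with a median of 0.61. Over all genes 14.1% rose and 22.6% fell, with a median of -0.05. Rrp12, a factor for the export and late maturation of pre-ribosomes, had the largest rise among the nucleolar members. Its signals were 5.35, 5.12 and 5.83 in wild-type SB, 6.09, 6.43 and 6.63 in wild-type VILI, 5.81, 5.82 and 4.98 in nmMLCK-/- SB and 6.90, 6.60 and 7.31 in nmMLCK-/- VILI. The VILI arrays were all above the SB arrays, and nmMLCK-/- VILI replicate 3 was the highest. The difference was 1.18 ± 0.20 (2.26-fold, adjusted p = 0.0015). In wild type alone it was 0.95 ± 0.28 (adjusted p = 0.0429), lost in 7 of 12 fits without 1 array.

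Heatr1, the mammalian Utp10 of the early processome, was at 8.50, 8.33 and 8.52 in wild-type SB, 9.34, 9.29 and 9.03 in wild-type VILI, 8.54, 8.31 and 8.39 in nmMLCK-/- SB and 9.09, 9.27 and 9.31 in nmMLCK-/- VILI. The groups did not overlap and were narrow within each. It rose by 0.79 ± 0.08 (adjusted p = 9.83e-05), with 0.77 in wild type and 0.81 in nmMLCK-/-. A dimmer probe set of the gene gave 0.15, and over the mean of its probe sets the difference was 0.47 and no longer passed (adjusted p = 0.055).

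Nolc1, the nucleolar phosphoprotein Nopp140, was at 8.75, 8.84 and 8.56 in wild-type SB, 9.37, 9.30 and 9.33 in wild-type VILI, 8.64, 8.46 and 8.46 in nmMLCK-/- SB and 9.37, 9.25 and 8.98 in nmMLCK-/- VILI. It rose by 0.65 ± 0.08 (adjusted p = 0.000341), with no overlap between VILI and SB. Wdr43, the processome protein Utp5, was at 9.89, 10.13 and 9.65 in wild-type SB, 10.45, 10.53 and 10.54 in wild-type VILI, 10.13, 9.84 and 10.07 in nmMLCK-/- SB and 10.54, 10.68 and 10.90 in nmMLCK-/- VILI, again without overlap, and rose by 0.65 ± 0.10 (adjusted p = 0.000835). For Utp20, a large scaffold of the processome, the signals were 8.12, 8.29 and 8.58 in wild-type SB, 8.67, 8.91 and 8.73 in wild-type VILI, 8.40, 8.37 and 8.24 in nmMLCK-/- SB and 8.98, 8.93 and 9.18 in nmMLCK-/- VILI. Here too the lowest VILI array, 8.67, was above the highest SB array, 8.58, and the difference was 0.57 ± 0.09 (adjusted p = 0.00116), with 0.44 in wild type, a call lost in 9 of the 12 fits without 1 array.

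Nop14, a partner of Noc4 in the 40S pathway, and Rrp9, the protein that binds the U3 snoRNA, rose less. Nop14 was at 8.92, 9.17 and 8.69 in wild-type SB, 9.37, 9.33 and 9.42 in wild-type VILI, 9.19, 8.85 and 8.94 in nmMLCK-/- SB and 9.50, 9.32 and 9.11 in nmMLCK-/- VILI, with an overlap at the lowest VILI array, and the difference was 0.38 ± 0.10 (adjusted p = 0.0144). Rrp9 was at 5.42, 5.38 and 5.39 in wild-type SB, 5.43, 5.65 and 5.70 in wild-type VILI, 5.12, 5.21 and 5.10 in nmMLCK-/- SB and 5.56, 5.40 and 5.35 in nmMLCK-/- VILI. In Rrp9 nmMLCK-/- VILI replicates 2 (5.40) and 3 (5.35) lay below the highest wild-type SB array (5.42) and above all nmMLCK-/- SB arrays, and the difference was 0.25 ± 0.07 (adjusted p = 0.0155). Nob1, the endonuclease that makes the final cut of 18S rRNA, did not pass (0.24 ± 0.10, adjusted p = 0.0836).

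The core proteins of the snoRNPs did not move as sets. Of the 3 box C/D proteins, which carry out 2′-O-methylation, Nop58 rose and the others did not pass. Nop58 was at 8.98, 8.73 and 7.92 in wild-type SB, 9.40, 9.80 and 9.51 in wild-type VILI, 8.98, 7.98 and 8.52 in nmMLCK-/- SB and 9.93, 9.77 and 9.48 in nmMLCK-/- VILI. All VILI arrays were above all SB arrays, but the SB values of the arrays that stood apart (7.92 and 7.98) were the lowest by far. The difference was 1.13 ± 0.21 (2.19-fold, adjusted p = 0.00256), and in wild type it was 1.03 with all arrays and 0.72 without SB replicate 3. Fbl, the methyltransferase fibrillarin, had a difference of 0.22 ± 0.09 (adjusted p = 0.0791), made up of 0.42 in wild type and 0.02 in nmMLCK-/-. With array medians set equal Fbl passed (0.26, adjusted p = 0.0481). Nop56 was at -0.02 ± 0.09 (adjusted p = 0.903), with an interval of -0.22 to 0.19.

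Of the 3 box H/ACA proteins, which serve pseudouridylation, Gar1 and Nhp2 rose. Gar1 was at 9.29, 9.22 and 9.17 in wild-type SB, 9.67, 9.73 and 9.69 in wild-type VILI, 9.45, 9.15 and 9.15 in nmMLCK-/- SB and 9.82, 9.77 and 9.90 in nmMLCK-/- VILI. Nhp2 was at 10.21, 10.36 and 10.41 in wild-type SB, 10.74, 10.94 and 10.81 in wild-type VILI, 10.10, 10.53 and 10.43 in nmMLCK-/- SB and 10.78, 10.84 and 10.78 in nmMLCK-/- VILI. Neither gene had an overlap between VILI and SB, and the differences were 0.52 ± 0.07 (adjusted p = 0.000348) and 0.48 ± 0.08 (adjusted p = 0.00184). Dkc1, the pseudouridine synthase dyskerin that these 2 proteins accompany, was at -0.11 ± 0.14 (adjusted p = 0.562). Its SB signals were 9.48 to 10.28, with the highest in the arrays that stood apart, and its VILI signals were 9.54 to 9.85. Without those arrays the Dkc1 difference was 0.08, and the gene's other probe sets gave 0.28 and 0.02.

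Of the 15 genes of large-subunit maturation 7 rose and 0 fell, with a median of 0.27, where 14.1% of all genes rose and 22.6% fell. Gnl3, nucleostemin, a nucleolar GTPase first known from stem cells, had the smallest p-value of all 40. It was at 10.37, 10.40 and 10.27 in wild-type SB, 11.14, 11.10 and 11.11 in wild-type VILI, 10.49, 10.14 and 10.37 in nmMLCK-/- SB and 11.16, 11.10 and 11.08 in nmMLCK-/- VILI. The VILI arrays spanned 11.08 to 11.16 and lay well above the SB arrays, which reached 10.49. The difference was 0.77 ± 0.07 (1.71-fold, adjusted p = 4.56e-05), with 0.77 in wild type and 0.78 in nmMLCK-/-.

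Ppan, a homologue of yeast Ssf1, rose by 0.73 ± 0.08 (adjusted p = 0.00013). Its signals were 7.71, 7.98 and 8.07 in wild-type SB, 8.55, 8.78 and 8.66 in wild-type VILI, 7.95, 8.07 and 8.01 in nmMLCK-/- SB and 8.64, 8.73 and 8.81 in nmMLCK-/- VILI. Rrs1, which brings the 5S ribonucleoprotein to the pre-60S particle, was at 10.92, 10.81 and 10.64 in wild-type SB, 11.32, 11.59 and 11.59 in wild-type VILI, 11.03, 10.90 and 10.97 in nmMLCK-/- SB and 11.49, 11.57 and 11.55 in nmMLCK-/- VILI. It rose by 0.64 ± 0.07 (adjusted p = 0.0002). In both genes the lowest VILI array was above the highest SB array.

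Ddx21, a nucleolar RNA helicase, was at 10.64, 10.51 and 10.30 in wild-type SB, 10.93, 10.85 and 11.13 in wild-type VILI, 10.44, 10.33 and 10.62 in nmMLCK-/- SB and 11.00, 10.95 and 10.92 in nmMLCK-/- VILI. It rose by 0.49 ± 0.08 (adjusted p = 0.00152) without an overlap. Wdr74, which works with a remodelling ATPase of the pre-60S particle, was at 8.49, 8.38 and 8.43 in wild-type SB, 8.74, 8.93 and 8.73 in wild-type VILI, 8.55, 8.35 and 8.51 in nmMLCK-/- SB and 8.74, 8.73 and 8.61 in nmMLCK-/- VILI. Its difference of 0.30 ± 0.06 (adjusted p = 0.00493) was small, but its lowest VILI array, 8.61, was above the highest SB array, 8.55.

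The calls for Gtpbp4 and Nop2 were the weakest. Gtpbp4, a GTPase of the early pre-60S particle, was at 11.49, 11.64 and 11.12 in wild-type SB, 11.77, 11.51 and 12.01 in wild-type VILI, 11.60, 11.36 and 11.57 in nmMLCK-/- SB and 11.76, 11.79 and 11.97 in nmMLCK-/- VILI. Its difference was 0.34 ± 0.11 (adjusted p = 0.0362), the call was lost in 9 of 12 fits without 1 array (the largest adjusted p was 0.0818, with wild-type VILI replicate 3 left out), and without the arrays that stood apart it was 0.23 (adjusted p = 0.11). Nop2, a methyltransferase of 28S rRNA, was at 8.42, 8.06 and 8.61 in wild-type SB, 8.48, 8.73 and 8.96 in wild-type VILI, 8.45, 8.61 and 8.44 in nmMLCK-/- SB and 8.84, 8.65 and 8.92 in nmMLCK-/- VILI. The difference was 0.33 ± 0.11 (adjusted p = 0.0402), lost in 8 of 12 such fits, at most at 0.0908 without wild-type VILI replicate 3. VILI and SB arrays overlapped in both genes.

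The 8 others of this role did not pass. The components of the PeBoW complex, Pes1, Bop1 and Wdr12, which act together in processing the 32S precursor, had differences of 0.06 ± 0.06, 0.17 ± 0.09 and 0.10 ± 0.14 (adjusted p = 0.437, 0.181 and 0.603). Bop1 passed without the arrays that stood apart (0.27, adjusted p = 0.0223), and another probe set of it gave 0.73. Nip7 was at 0.27 ± 0.13 (adjusted p = 0.132) and passed without those arrays (0.42, adjusted p = 0.0209), while Rrp1b was at 0.25 ± 0.11 (adjusted p = 0.0865). Noc2l was at 0.14 ± 0.09 and Noc3l at 0.12 ± 0.41 (adjusted p = 0.242 and 0.831), the latter with SB signals from 5.29 to 7.56. Nop16 had the lowest value of the role, -0.34 ± 0.22 (adjusted p = 0.248), with SB signals of 7.26 to 8.46 and VILI signals of 7.03 to 8.06.

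Of the abundant nucleolar proteins, Mybbp1a, which binds Myb and pre-rRNA complexes, was the 1 of 3 that rose. It was at 10.53, 10.45 and 10.31 in wild-type SB, 10.86, 11.09 and 10.95 in wild-type VILI, 10.65, 10.24 and 10.48 in nmMLCK-/- SB and 11.12, 11.10 and 11.30 in nmMLCK-/- VILI. No arrays overlapped, and the difference was 0.63 ± 0.08 (adjusted p = 0.000486). Ncl, nucleolin, was at 0.27 ± 0.11 (adjusted p = 0.0841) with SB signals of 12.84 to 13.42 and VILI signals of 13.27 to 13.57. Npm1, nucleophosmin, was at -0.10 ± 0.05 (adjusted p = 0.134), and every VILI array (13.16 to 13.25) was within the range of SB (13.22 to 13.43) or below it.

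The largest subunits of RNA polymerase I differed from each other. Polr1a, the catalytic subunit, was at 6.36, 6.39 and 6.54 in wild-type SB, 6.55, 6.69 and 6.67 in wild-type VILI, 6.48, 6.35 and 6.44 in nmMLCK-/- SB and 6.83, 6.56 and 7.16 in nmMLCK-/- VILI. It rose by 0.31 ± 0.09 (adjusted p = 0.0261), the lowest VILI array (6.55) lying just above the highest SB array (6.54), and the call was lost in 4 of 12 fits without 1 array. In nmMLCK-/- alone it was 0.42, and 0.27 without VILI replicate 3. Polr1b did not pass (-0.32 ± 0.40, adjusted p = 0.551). Its SB signals ran from 3.73 to 6.32, highest in the arrays that stood apart, and without those arrays the difference was 0.19.

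Both polyamine enzymes rose. Odc1, ornithine decarboxylase, was at 12.61, 12.54 and 12.56 in wild-type SB, 13.30, 13.27 and 13.50 in wild-type VILI, 12.43, 12.62 and 12.76 in nmMLCK-/- SB and 13.30, 13.26 and 13.40 in nmMLCK-/- VILI. All VILI arrays were above all SB arrays, the difference was 0.75 ± 0.07 (1.69-fold, adjusted p = 8.06e-05), and its other probe sets gave 0.89 and 1.06. Srm, spermidine synthase, was at 8.61, 8.36 and 9.08 in wild-type SB, 8.89, 9.34 and 9.22 in wild-type VILI, 8.25, 8.81 and 8.75 in nmMLCK-/- SB and 9.32, 9.20 and 9.34 in nmMLCK-/- VILI. It rose by 0.57 ± 0.14 (adjusted p = 0.0112), with 1 SB array, that of wild-type replicate 3, within the VILI range. In nmMLCK-/- alone Srm was at 0.68, a call lost in 8 of 12 fits without 1 array.

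The choice of probe set mattered for some members. Of the 40 genes 24 had more than 1 probe set past the filter, which gave 33 further probe sets, and 29 of these had the sign of the chosen one by the mean of both genotypes. The 4 with the opposite sign belonged to Nop56, Dkc1 (2 probe sets) and Pes1, none of which was called. Noc2l, at 0.14 with the chosen probe set, was at 0.98 with its other one. With the mean of a gene's probe sets 29 members were called in place of 24: Fbl, Nip7, Rrp1b, Bop1 and Noc2l passed as higher, Npm1 passed as lower (-0.20, adjusted p = 0.0454), and Heatr1 did not pass.

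The SB arrays that stood apart differed from the other 4 in both directions. In 11 members both of these arrays lay below the other 4 SB arrays, against 17.5% of all genes, and in 10 both lay above, against 26.8%. The low ones were Myc, Max, Nop14, Wdr43, Nop58, Pes1, Ddx21, Gnl3, Gtpbp4, Ncl and Mybbp1a, led by Max (2.00 lower), Myc (1.06 lower) and Nop58 (0.85 lower). The high ones were Rrp12, Dkc1, Nop2, Nop16, Nip7, Bop1, Noc3l, Ppan, Polr1b and Srm, led by Polr1b (1.53 higher), Noc3l (1.49) and Nop16 (0.83). Odc1 differed by 0.00, Heatr1 by -0.03 and Polr1a by 0.03. Without these arrays 25 members were called in place of 24 by the mean of both genotypes, with Nip7 and Bop1 gained and Gtpbp4 lost. The difference of Nop58 was then 0.85 in place of 1.13 and still passed (adjusted p = 0.00192), while Noc3l was at 0.62 in place of 0.12, Nop16 at -0.07 in place of -0.34 and Ncl at 0.12 in place of 0.27, none of which passed. Gnl3 (0.71), Wdr43 (0.55), Mybbp1a (0.54), Ddx21 (0.41) and Nop14 (0.29, adjusted p = 0.0452) had smaller differences and still passed. In nmMLCK-/- alone the calls of Rrp9 (0.33, adjusted p = 0.061) and Polr1a (0.39, adjusted p = 0.107) were lost, as was that of Mxd1.

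Neutrophil markers (9 of 11, with Camp, a further marker, under the filter) rose with VILI beside these genes, and their part in the result was not tested. In wild-type SB replicate 3 the list with Camp averaged 8.73, within the VILI range of 8.35 to 9.68, and in the other 5 SB arrays it was 5.93 to 6.74. The list of 19 cell cycle genes, of which 16 passed the filter, averaged 6.15 to 6.29 under SB and 6.11 to 6.30 after VILI. Markers of alveolar type 2 cells were level (14.09 to 14.33 against 14.17 to 14.27). For endothelial cells the average was lower in every VILI array (12.28 to 12.56 against 11.83 to 12.04). The same held for ciliated cells (8.71 to 9.18 against 7.95 to 8.34). Both lists were mixed. Of 10 endothelial markers 4 fell and 1 rose (differences of -2.23 to 0.41), and of 8 ciliated markers 5 fell and 1 rose (-2.42 to 0.29). Over all genes 22.6% fell and 14.1% rose. The part of these cells in the result was not tested either.

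The second question was whether the loss of nmMLCK altered the module. For none of the 40 did the response to VILI differ between the genotypes after adjustment, and 0% of all genes did (0 genes called in limma, 619 at an unadjusted p under 0.05, which is 5.03% of all, and 1 of the 40). That member was Noc2l, whose VILI minus SB was -0.07 in wild type and 0.35 in nmMLCK-/- (difference 0.42 ± 0.18, unadjusted p = 0.0401, adjusted p = 0.971). Its signals were 7.93, 7.62 and 8.00 in wild-type SB, 7.73, 7.92 and 7.68 in wild-type VILI, 7.78, 7.82 and 7.82 in nmMLCK-/- SB and 7.96, 8.17 and 8.36 in nmMLCK-/- VILI. Its other probe set gave VILI minus SB of 1.19 in wild type and 0.77 in nmMLCK-/-, the opposite order. With the mean of a gene's probe sets 0 members had an unadjusted p under 0.05 in limma.

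With 3 arrays a group these comparisons were imprecise for the variable genes. For Myc the response was -0.44 ± 0.54 in nmMLCK-/- relative to wild type, with a 95% interval of -1.63 to 0.75 (adjusted p = 0.983). For Gnl3 it was 0.01 ± 0.13 (interval -0.28 to 0.30), for Heatr1 0.04 ± 0.16 (-0.30 to 0.39) and for Odc1 -0.07 ± 0.14 (-0.39 to 0.24). For Max the interval was -1.48 to 2.57 and for Polr1b -2.84 to 0.69. Mxi1 (-0.32 ± 0.15, interval -0.64 to 0.00) and Fbl (-0.40 ± 0.18, interval -0.80 to 0.00) had the next smallest p-values after Noc2l. For the other probe set of Fbl VILI minus SB was 0.22 in wild type and 0.20 in nmMLCK-/-, and for that of Mxi1 it was -1.74 and -2.13. The intervals of Myc, Max and Polr1b thus span several times the width of those of Gnl3 and Odc1.

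Levels were also compared between the genotypes within a condition. Under SB 0 of the 40 differed, against 0.0487% of all genes (6 genes), and after VILI 0 of the 40 differed, against 0.106% (13 genes). At an unadjusted p under 0.05 there were 2 members in each comparison, against 3.74% and 8.69% of all genes. For Myc nmMLCK-/- minus wild type was 0.31 ± 0.38 under SB (interval -0.53 to 1.15) and -0.13 ± 0.38 after VILI (interval -0.97 to 0.72).

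**Figure D3:**
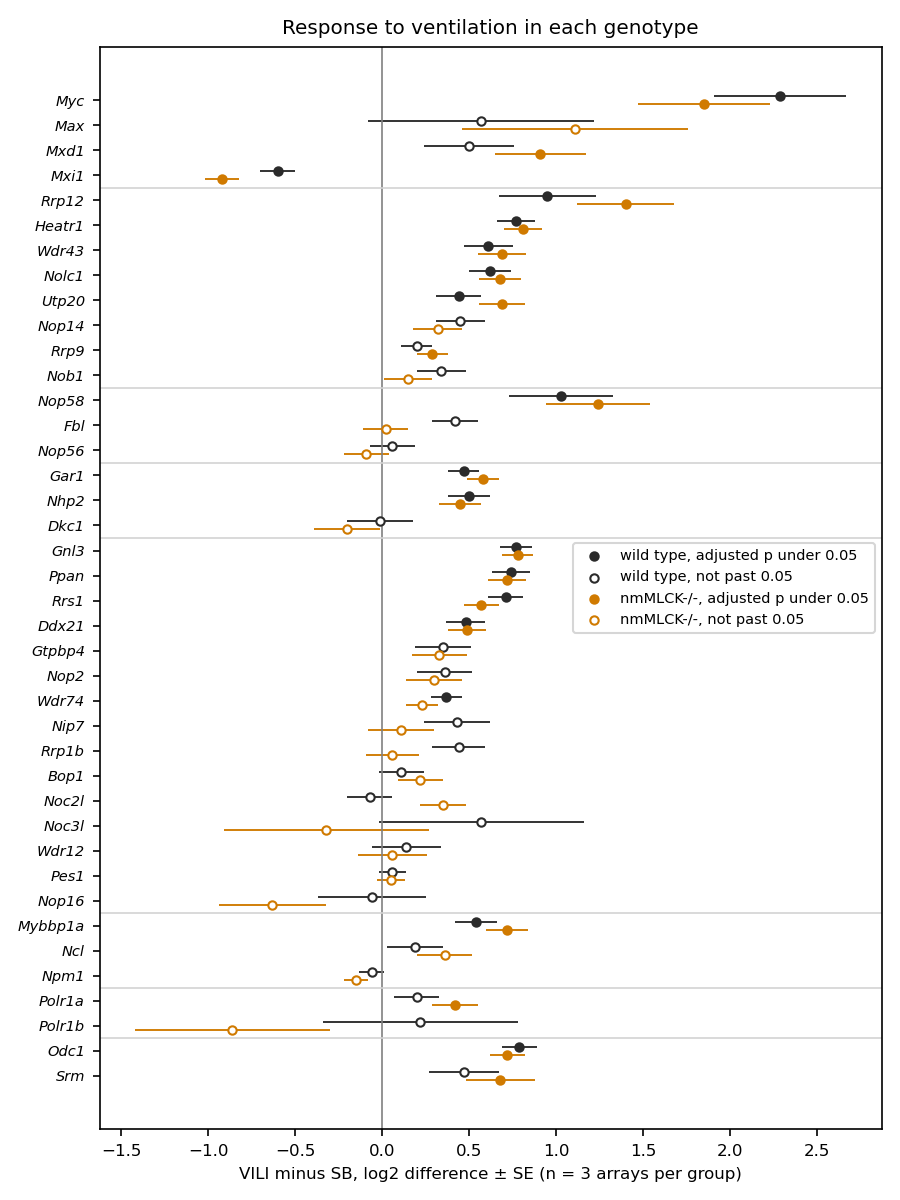
VILI minus SB (log2 difference ± SE, n = 3 arrays per group) of each of the 40 genes, by role, in wild type (black) and nmMLCK-/- (orange), filled where the gene was called. Myc is at 2.29 and 1.85, Rrp12 at 0.95 and 1.40 and Noc2l at -0.07 and 0.35, and for no gene did the difference between genotypes pass.

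Whether the module follows Myc was read in another way, from the differences among arrays of the same group, where the shift between SB and VILI takes no part. A slope on the Myc signal was fitted beside the 4 group means, for 12308 genes including the 39 other members. For none of the 39 did the slope pass, and 0% of all genes passed (0 genes in limma). At an unadjusted p under 0.05 there were 8 of the 39, 5 with a positive slope, and 2714 of all genes (22.1%). The median slope was -0.04 over the 39 and -0.04 over all genes, with 16 positive and 23 negative.

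Max had the smallest p of the members and the steepest positive slope, 1.45 ± 0.30 log2 per log2 of Myc (adjusted p = 0.101). Nop58 had 0.63 ± 0.15 (adjusted p = 0.112), and Nop14 (0.25 ± 0.09), Nolc1 (0.19 ± 0.08) and Gnl3 (0.17 ± 0.06) were the other positive ones at an unadjusted p under 0.05. Dkc1 (-0.43 ± 0.09), Nop16 (-0.59 ± 0.19) and Srm (-0.34 ± 0.13) were the negative ones. The textbook Myc target Odc1 had -0.06 ± 0.08, Rrp12 had -0.43 ± 0.19 and Heatr1 had 0.05 ± 0.09.

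In 3 arrays Myc was clearly below its group mean: it was 0.48 below its group mean in wild-type SB replicate 3 and 0.93 below in nmMLCK-/- SB replicate 2, the arrays that stood apart, and 0.52 below in nmMLCK-/- VILI replicate 3. The median deviation of the members that rose was -0.01, -0.09 and 0.07 in these arrays. In nmMLCK-/- VILI replicate 3 Myc was at its lowest after VILI (7.93). Several members that rose had their highest signal of the 12 arrays there. They were Rrp12 (7.31), Utp20 (9.18), Wdr43 (10.90), Mybbp1a (11.30), Polr1a (7.16), Gar1 (9.90), Ppan (8.81) and Mxd1 (10.66). Srm (9.34) was level there with wild-type VILI replicate 2. Of the members that rose, Nolc1 (8.98), Gnl3 (11.08), Nop14 (9.11), Rrp9 (5.35) and Wdr74 (8.61) had their lowest signal after VILI in this array. How often this held over all genes was not counted. Without the SB arrays that stood apart 0 genes were called, the slope of Max was 0.84 ± 0.40 (adjusted p = 0.545), and 4 of the 39 members had an unadjusted p under 0.05, of which 1 (Nolc1, 0.38 ± 0.13) was positive and Mxd1 (-0.91 ± 0.35), Wdr43 (-0.34 ± 0.14) and Polr1a (-0.44 ± 0.17) were negative. The median slope was then -0.10 over the members and -0.02 over all genes. Without nmMLCK-/- VILI replicate 3 instead, 409 genes were called, Max the 1 member among them, and with all 3 arrays left out 0 were.

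The genes with the smallest p for this slope were no members. They were Ccnl1 (0.46 ± 0.06), a cyclin of pre-mRNA splicing, Noct (0.73 ± 0.09), the circadian gene nocturnin, Eml2 (0.75 ± 0.10), Nfil3 (1.33 ± 0.18), a bZIP repressor, and Ttll12 (-0.82 ± 0.11), at adjusted p-values of 0.0832 to 0.0867.

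**Figure D4:**
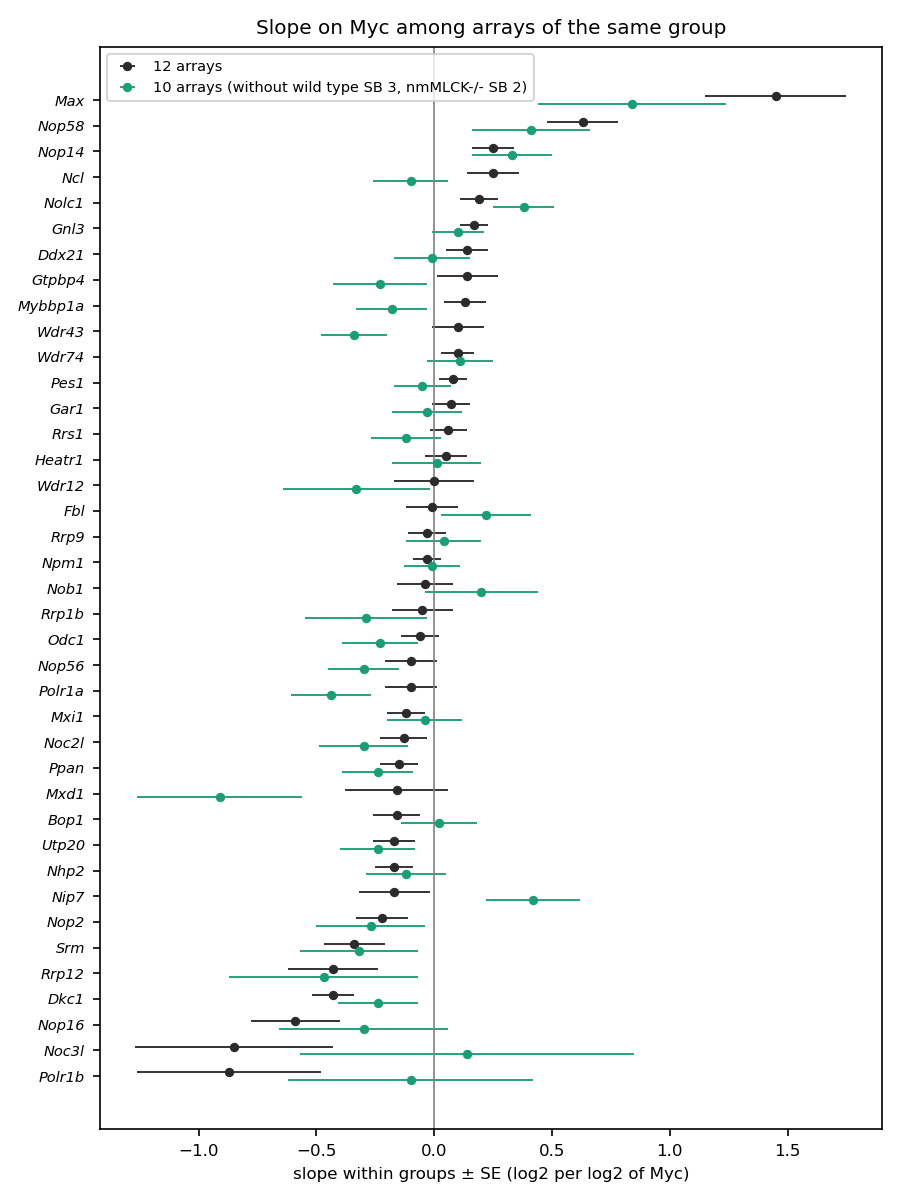
Slope of each of the 39 other genes on Myc among arrays of the same group (log2 per log2 of Myc) with its standard error, over 12 arrays (black) and without the 2 SB arrays that stood apart (green). Over 12 arrays 16 slopes are positive and 23 negative, and those of Noc3l, Polr1b and Mxd1 move most when the 2 arrays are left out.

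The rest of the pathway was described from lists of genes that are not members, also chosen with earlier results of these data known. Of 35 other genes of the small-subunit processome and of later small-subunit maturation 18 rose and 2 fell, with a median of 0.23. Among them Tsr1, a GTPase-like factor of the late pre-40S particle, rose by 0.88 ± 0.06 (adjusted p = 1.73e-05), with SB signals of 9.66 to 9.98 and VILI signals of 10.45 to 10.89. Riok1, an atypical kinase of the same step, rose by 0.56 ± 0.07 and Nol10 by 0.73 ± 0.10, and Utp11 fell by 0.59 (SE 0.07, adjusted p = 0.000326). Of 27 other genes of large-subunit maturation 10 rose and 0 fell, with a median of 0.15. Nmd3, the export adaptor of the 60S subunit, rose by 0.54 ± 0.06, Ddx54 by 0.42 ± 0.08, Sdad1 by 0.87 ± 0.17 and Rpf2, a partner of Rrs1, by 0.46 ± 0.09. Of all genes 14.1% rose and 22.6% fell. Without the SB arrays that stood apart 15 rose and 1 fell of the 35, and 9 and 0 of the 27, where 14.5% of all genes rose and 20.3% fell.

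Of 46 listed cytosolic ribosomal proteins, the products that the nucleolar factors assemble, 29 were tested. Among these 1 rose and 5 fell, with a median of -0.09 against -0.05 over all genes. Both counts were below the shares of all genes (14.1% that rose and 22.6% that fell). Rpl12 was the 1 that rose, by 1.15 ± 0.12 (adjusted p = 0.000146), from SB signals of 6.45 to 7.09 to VILI signals of 7.64 to 8.17. Rpl6 (-0.20 ± 0.05), Rps19 (-0.23 ± 0.07) and Rpl11 (-0.20 ± 0.06) fell by small amounts, and without the SB arrays that stood apart 1 of the 29 fell (20.3% of all genes). Beyond the core subunits, 4 genes of the RNA polymerase I machinery rose and 2 fell of 13 (median 0.03). They included Twistnb (0.36 ± 0.07) and Cd3eap (0.49 ± 0.15), subunits of the enzyme, which rose. Taf1b (-0.42 ± 0.12), of its promoter factor, and Polr1c (-0.25 ± 0.08), a subunit shared with RNA polymerase III, fell. Without the SB arrays that stood apart 3 of the 13 rose and 1 fell, and Taf1b did not pass (-0.31, adjusted p = 0.061). Polr1c did not pass with array medians set equal (-0.21, adjusted p = 0.0682), and its call was lost in 6 of 12 fits without 1 array.

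The further lists, given next, each had smaller shares that rose and that fell than all genes (14.1% and 22.6%), and their differences from the nucleolar lists were not tested. Of 30 nucleotide and growth genes known to respond to Myc 3 rose and 4 fell, with a median of 0.05: Hk2, a hexokinase of glycolysis, rose by 1.66 ± 0.19, while the mitochondrial chaperonins Hspe1 (-0.62 ± 0.07) and Hspd1 (-0.43 ± 0.07) and the serine enzyme Shmt2 (-0.31 ± 0.07) fell. Of 16 cell cycle genes 0 rose and 2 fell, Mcm7 (-0.55 ± 0.10) and Mcm2 (-0.32 ± 0.09), both helicase subunits of DNA replication. Mcm2 did not pass without the SB arrays that stood apart (-0.23, adjusted p = 0.0542), nor with the mean of its probe sets (-0.21, adjusted p = 0.0611). None of 5 other polyamine genes passed, with Sat1 at 0.14 ± 0.10, Oaz2 at -0.14 ± 0.12, Smox at -0.06 ± 0.10 and Azin1 at -0.03 ± 0.07. Of 8 other Myc and Max network genes Mycn rose (0.57 ± 0.16, adjusted p = 0.0178) and Mycl fell (-1.83 ± 0.28, adjusted p = 0.000948), from SB signals of 3.80 to 5.21 to VILI signals of 1.90 to 3.20, which reach below the level of 3.056 used as the filter. Mxd4 (-0.36 ± 0.16) and Mlxip (0.17 ± 0.18) did not pass.

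**Figure D5:**
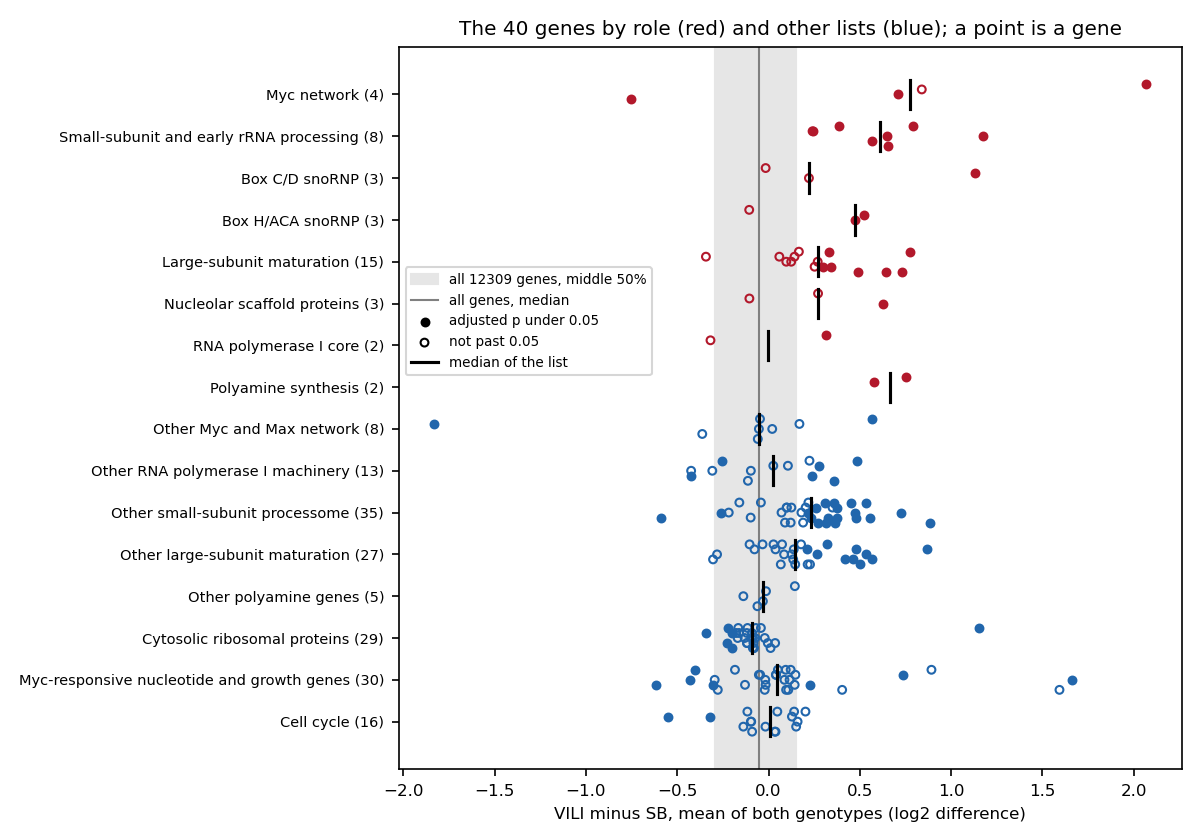
VILI minus SB, mean of both genotypes (log2 difference), of each gene by role for the 40 genes (red) and by list for other genes (blue), with the list's median (bar), called genes filled, and the middle 50% of all genes shaded. The polyamine enzymes and the small-subunit genes have medians of 0.66 and 0.61, and the ribosomal proteins sit at -0.09.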

How the data were processed

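The files hold 1 table of log2 signals, deposited by the authors as 1 value per probe set and array for 45037 probe sets. MAS5 and GCRMA are named in the submitters' processing notes, without the part or version of each. For the probe sets, the genome build was not given in the sources used here. Values ran from 0.7505 to 16.29 with array medians of 4.94 to 5.037. The signals are relative within an array, so the amount of RNA per cell was not measured, and a log2 signal of 1 probe set cannot be set against that of another. Correlations between arrays over all probe sets were 0.9806 to 0.9979. For arrays, the number per group, 3, limits the precision.

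Probe sets with 1 gene symbol in the platform's annotation (34945, with 932 carrying several and 9160 none) were kept when their mean over all arrays was above the 40th percentile, a log2 signal of 3.056. The probe set with the highest mean represented each gene. The model, fitted to all 12 arrays, held the 4 group means, and its contrasts were tested by limma 3.58.1 (lmFit and eBayes, R 4.3.3). P-values were adjusted over the 12309 genes by the Benjamini-Hochberg method. The slope on Myc added the Myc signal to that model, with 7 residual degrees of freedom against 8 without it. The fits were also run on simulated data with independent noise for each gene. These lacked the shared shift of the SB arrays that stood apart, and their slopes on Myc were steeper than those of the members. No result here rests on that run.

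The genes named are all 40, at most 4 genes of each further list with the smallest p by the mean of both genotypes, the 5 genes with the smallest p for the slope, and Mylk. The members and lists were chosen with earlier results of these data known. Lists are described by counts and medians, with no test of a list. Alternatives were array medians set equal, quantile normalization, no filter, a filter at the 60th percentile, the mean of a gene's probe sets, eBayes with trend and robust, the replicate number as a block, each array left out in turn, and the SB arrays that stood apart left out. Leaving out nmMLCK-/- VILI replicate 3 together with these was added after seeing the data. Promoter sequences came from RefSeq. Myc, Srm, Bop1, Fbl, Npm1, Rrs1 and Rrp12 had no entry.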

Additional observations from a re-analysis of the deposited data

How the results depend on the processing

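The number of members called by the mean of both genotypes was 21 to 29 under every setting run, against 24, and 21 to 25 when 1 array was left out. In wild type it was 14 to 20, and 11 to 18 with 1 array left out; in nmMLCK-/- it was 17 to 20, and 14 to 20. For the difference of responses and for the genotype comparisons 0 members were called under each setting. Over all genes, leaving out 1 array gave 3551 to 4659 calls for the mean, 933 to 2052 in wild type and 1232 to 3301 in nmMLCK-/-. The genotype comparisons over all genes moved more: the difference of responses called 0 genes, 1 with no filter, 11 without the SB arrays that stood apart and 0 to 6 with 1 array left out. Under SB the count was 6, with 19 without those arrays and 0 to 16 with 1 array left out. After VILI it was 13, with 6 with no filter, 8 with the 60th percentile as filter, 28 without the SB arrays that stood apart and 2 to 19 with 1 array left out. The slope on Myc called 0 genes, with 1 with no filter, 3 with the stricter filter, 3 with trend and robust, 10 with the mean of probe sets and 0 to 409 with 1 array left out, among them 0 to 1 members. The causes were not tested.

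Signs turned only for values that had not passed. Nop56 (-0.02) was at 0.02 with equal medians, 0.01 with quantile normalization, 0.04 with the mean of probe sets, 0.02 without the SB arrays that stood apart and -0.07 to 0.05 with 1 array left out. Dkc1 (-0.11) was at 0.06 with the mean of probe sets, 0.08 without the SB arrays that stood apart and 0.03 without these and nmMLCK-/- VILI replicate 3, and its slope on Myc was 0.06 in the last setting. Pes1 (0.06) was at -0.07 with the mean of probe sets. Noc3l (0.12) ran from -0.15 to 0.43 with 1 array left out. Polr1b (-0.32) was at 0.19 in both settings without the SB arrays that stood apart and ran from -0.60 to 0.05 with 1 array left out. Max in wild type (0.57) was at -0.18 without the SB arrays that stood apart and ran from -0.18 to 1.04 with 1 array left out.

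No pairing by replicate number was seen: among 18 pairs with the same number in different groups, 3 had deviations correlated above 0.1 (median -0.018), against 7 of 36 pairs with different numbers. The highest correlation, 0.706, was that between the SB arrays that stood apart, whose numbers differ. With 3 arrays a group these counts cannot exclude a pairing. With the replicate number as a block 23 members were called by the mean of both genotypes, 15 in wild type and 18 in nmMLCK-/-, and over all genes 0 were called between genotypes under SB and 2 after VILI.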
